A study of Homo sapiens with 24 samples.

Results

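The 36 genes described here bring iron into the cell, store it, sense it, pass it through haem, or build it into iron-sulfur (Fe-S) clusters. They were taken by gene symbol from the 58735 genes counted in HEK293T cells, a human embryonic kidney line that carries the SV40 large T antigen. All 36 were found and all 36 passed the filter on low counts, which left 19952 genes for testing. By role, 11 act in uptake, storage and export (TFRC, SLC11A2, STEAP3, SLC25A37, SLC25A28, PCBP1, PCBP2, FTH1, FTL, NCOA4 and SLC40A1). A further 3 sense iron (ACO1, IREB2 and FBXL5) and 4 act in haem turnover (HMOX1, HMOX2, FECH and ABCB10). Fe-S assembly has 12 mitochondrial members (NFS1, LYRM4, FDX1, HSCB, HSPA9, GLRX5, ISCA1, ISCA2, IBA57, NFU1, BOLA3 and NUBPL) and 6 cytosolic ones (CIAPIN1, NUBP1, NUBP2, CIAO1, CIAO2B and MMS19). The cells were MIR210-KO, MIR210HG-KO or WT, and each genotype was held for 24 h at 1% oxygen (hypoxia) or at 21% oxygen (normoxia), with 4 libraries in each of the 6 groups. MIR210 encodes the microRNA miR-210, and MIR210HG is its non-coding host transcript. Every group had the same high-glucose medium with heat-inactivated serum and antibiotics. The labels give neither how the knockouts were made nor whether a knockout line is 1 clone. They also do not say that the libraries of a group came from separate cultures, so p-values measure the spread between these libraries, which may be technical.

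As background, iron enters most cells bound to transferrin through the transferrin receptor, is reduced and moved out of endosomes, and is then used, stored in ferritin or exported through ferroportin. Iron regulatory proteins bind iron-responsive elements in messenger RNA when iron is scarce, where they block translation of ferritin and ferroportin and protect the transferrin receptor transcript from decay. Fe-S clusters are assembled in mitochondria on the scaffold ISCU and handed on to mitochondrial and cytosolic carriers. In hypoxia miR-210 is induced by hypoxia-inducible factors, and it is best known for repressing ISCU.

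Iron-responsive elements are shown first because they mark the transcripts that the iron sensors read. A search on the transcript strand for the 6-base loop CAGTGN, with the 5 bases on each side able to pair (G-U allowed) and an unpaired C just before them, found the element in the 5′ UTR of 3 members and the 3′ UTR of 1. Over all genes it was found in 0.191% of the 18803 with an annotated 5′ UTR and 0.692% of the 19084 with a 3′ UTR. An element that departs from this strict pattern is missed, so a transcript without a match is not shown to lack one. The 29-base stretches below were read from GRCh38 with GENCODE annotation, and the capitals mark the 6-base loop.
FTH1, 5′ UTR, chr11:61967574-61967602, minus strand: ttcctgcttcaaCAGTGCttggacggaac
FTL, 5′ UTR, chr19:48965335-48965363, plus strand: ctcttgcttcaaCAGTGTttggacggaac
SLC40A1, 5′ UTR, chr2:189580661-189580689, minus strand: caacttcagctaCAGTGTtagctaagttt
TFRC, 3′ UTR, chr3:196050463-196050491, minus strand: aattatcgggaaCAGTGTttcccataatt
TFRC, 3′ UTR, chr3:196050510-196050538, minus strand: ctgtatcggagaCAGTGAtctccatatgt
TFRC, 3′ UTR, chr3:196050575-196050603, minus strand: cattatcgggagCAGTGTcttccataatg
TFRC, 3′ UTR, chr3:196050979-196051007, minus strand: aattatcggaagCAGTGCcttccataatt

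The mature microRNA and its matches are shown because MIR210 is the gene removed. RefSeq (GRCh38.p14) places miR-210-3p on the minus strand of chromosome 11. Its seed, bases 2 to 8, is in capitals, and so is the matching ACGCACA in each 3′ UTR. The site was found in 509 of 18918 genes with a 3′ UTR (2.69%) and in 3 of the 36 members: TFRC, CIAPIN1 and the mitochondrial iron importer SLC25A37, whose sequence is not shown. ISCU, which is no member, also holds it.
hsa-miR-210-3p, chr11:568112-568133: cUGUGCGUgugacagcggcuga
TFRC, chr3:196049719-196049740, minus strand: ctggttcgggtgttACGCACAc
CIAPIN1, chr16:57428437-57428458, minus strand: aggaacttagtgtcACGCACAa
ISCU, chr12:108569013-108569034, plus strand: aagagctatgagatACGCACAa

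Depth ran from 25556776 to 37858947 counts per library, and the lowest count of any member in any library was 82. MIR210HG had 0 counts in every MIR210HG-KO library. In MIR210-KO it was still counted, at 20.7 ± 1.46 CPM in hypoxia, against 19.1 ± 1.72 CPM in hypoxia WT (SD, n = 4 each). Its normoxia levels were 3.48 ± 1.07 CPM in MIR210-KO cells and 5.70 ± 0.647 CPM in WT cells. CPM are counts scaled to library size, per 1e+06 counts. Mature microRNA is outside what these libraries measure. Of 8 genes that mark HEK293T cells, 8 were detected in every group, but their summed levels differed between genotypes. In normoxia the libraries ran from 397 to 413 CPM in MIR210HG-KO, 625 to 653 CPM in WT and 934 to 1030 CPM in MIR210-KO. In hypoxia they ran from 499 to 512, 963 to 1194 and 1197 to 1269 CPM in the same order. Single markers did not all follow the sum. In normoxia, PAX2 and CDH2 averaged 4.72 and 59.9 CPM in MIR210-KO, below WT at 6.22 and 106 CPM. NEFM, NEFL, INA, VIM, KRT8 and KRT18 were above WT there. In normoxia MIR210HG-KO only KRT8 was above WT. It averaged 99.7 CPM in MIR210-KO, 27.5 CPM in MIR210HG-KO and 20.4 CPM in WT. The part of these marker differences in the genotype results below was not tested. Erythroid markers summed to at most 1.20 CPM and macrophage markers to at most 0.484 CPM, with 1 to 3 of 6 and 0 or 1 of 4 at 0 in a group, so both cell types that handle much iron were close to absent. Hypoxia WT fell into 2 pairs: chi-square per degree of freedom between libraries was 8.39 for 1 with 3 and 5.26 for 2 with 4, but 25.4 to 48.1 across the pairs. Hypoxia MIR210-KO 1 lay 8.57 to 15.7 from the rest of its group (4.11 to 7.59 among them), and normoxia MIR210HG-KO 3 lay 15.7 to 27.1 from its group (2.27 to 4.45 among them). Long non-coding genes took 1.62% and 1.55% of counts in hypoxia WT 1 and 3, against 2.49% and 2.25% in hypoxia WT 2 and 4, and 1.88% in hypoxia MIR210-KO 1, against 2.11% to 2.31% in the rest of its group. Genes of 8000 bases or more relative to those of 1500 bases or fewer stood at -0.036 and -0.067 (log2) in hypoxia WT 1 and 3, against 0.084 and 0.061 in hypoxia WT 2 and 4. The part of these differences in the results below was not tested. Results are also given with 4 libraries set aside, hypoxia WT 1 and 3, hypoxia MIR210-KO 1 and normoxia MIR210HG-KO 3. Nothing shows which pair of hypoxia WT libraries is the odd one. A swapped choice, added after seeing the data, therefore sets aside WT 2 and 4 in place of WT 1 and 3. It is given where it changed the call of a named log2 fold change or moved a total count by more than 1.5 times. Smaller moves of totals, and the counts by direction, are not all given. The values refitted were the counts called over all members and over all genes, and 188 named log2 fold changes of members. Other values were not refitted, so the lack of a remark on them does not show that their calls held. The median coefficient of variation of the members was 10.4% in hypoxia WT, against 3.24% to 6.51% in the other 5 groups. Transcripts of the mitochondrial genome took 1.93% to 2.96% of counts in hypoxia libraries and 3.18% to 3.95% in normoxia libraries, and the part of this difference in the results below was not tested. Each oxygen level was counted in a table of its own, so oxygen level and table cannot be told apart.

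Levels between genes were compared as CPM per kilobase of gene length, in normoxia WT. Ferritin light chain (FTL), part of the shell that stores iron, was the most abundant member at 242 ± 10.3 CPM per kilobase (SD, n = 4), and ferritin heavy chain (FTH1), which oxidizes the iron, came next at 113 ± 7.35. They were followed by the iron chaperone PCBP1 (87.2 ± 1.91), the mitochondrial chaperone HSPA9 (75.0 ± 0.150), CIAO2B of the cytosolic targeting complex (62.6 ± 0.899) and the transferrin receptor TFRC (41.1 ± 1.68). GLRX5 (38.2 ± 1.17) and CIAO1 (37.5 ± 0.823) were within their spread of each other. At the low end stood ferroportin (SLC40A1), the iron exporter, at 1.19 ± 0.0705, below LYRM4 at 3.11 ± 0.167 and NUBPL at 3.55 ± 0.162.

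Most of these genes differed between hypoxia and normoxia, and most of those were lower in hypoxia. Oxygen level cannot be told apart from its count table in any of these comparisons. In MIR210-KO 23 of 36 members were called, 3 higher and 20 lower in hypoxia (63.9%), where 58.7% of all tested genes were called, 29.3% higher and 29.5% lower. In MIR210HG-KO 25 were called, 3 higher and 22 lower (69.4%, against 54.1% of all genes, 25.7% higher and 28.3% lower). In WT 30 were called, 11 higher and 19 lower (83.3%, against 60.3% of all genes, 29.6% higher and 30.7% lower). Without the 4 set-aside libraries the members higher in hypoxia were 6 in MIR210HG-KO and 6 in WT. With the swapped choice 6 were higher and 22 lower in MIR210HG-KO. Called means an adjusted p under 0.05 in edgeR's quasi-likelihood test, two-sided, with Benjamini-Hochberg adjustment over all 19952 genes. The median log2 fold change of the members was -0.31 in MIR210-KO, -0.32 in MIR210HG-KO and -0.16 in WT, beside 0.035, 0.027 and 0.0020 over all genes. In the same order 12, 14 and 12 members were called and changed by more than 1.5-fold, a share not counted over all genes. The median absolute log2 fold change of the members was 0.420 in MIR210-KO, 0.394 in MIR210HG-KO and 0.314 in WT. Over all genes it was 0.395, 0.371 and 0.427. The hypoxia and normoxia libraries did not overlap for 23 members in MIR210-KO (54.1% of all genes), 23 in MIR210HG-KO (46.4%) and 26 in WT (53.2%). In all 3 genotypes 18 members were lower (50%, against 19.6% of all genes) and 2 were higher (5.56%, against 15.4%). The direction of each gene is one of RNA abundance in a bulk culture, in which fewer cells making a transcript and less RNA per cell cannot be told apart.

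**Figure D1:**
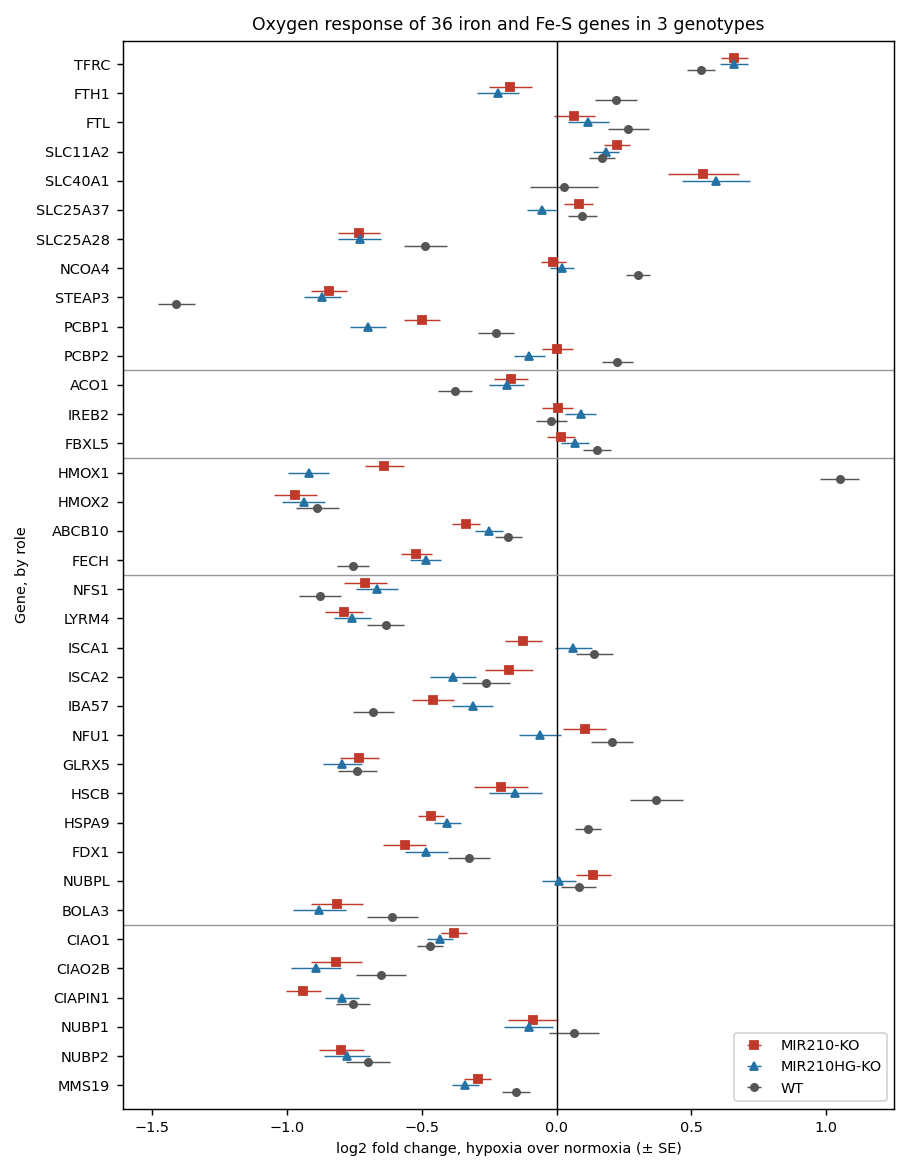
Oxygen response of the 36 genes, as the log2 fold change of hypoxia over normoxia (x axis, ± SE) for MIR210-KO (squares), MIR210HG-KO (triangles) and WT (circles), with genes grouped by role and separated by grey lines. TFRC lies right of 0 in all 3 genotypes, HMOX1 lies right of 0 in WT (1.05) and left of it in MIR210-KO (-0.64) and MIR210HG-KO (-0.92), and most assembly genes lie left of 0.

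Among uptake genes, TFRC was higher in hypoxia in all 3 genotypes. It had 377, 384, 409 and 411 CPM in hypoxia MIR210-KO, against 256, 252, 244 and 249 CPM in normoxia MIR210-KO. In MIR210HG-KO it had 462, 451, 424 and 471 CPM in hypoxia, against 282, 277, 280.4 and 307 CPM in normoxia. In WT it had 446, 489, 446 and 497 CPM in hypoxia, against 319.6, 340.3, 309 and 327 CPM in normoxia. No hypoxia library overlapped a normoxia library of its genotype. The log2 fold changes were 0.66 ± 0.051 in MIR210-KO, 0.66 ± 0.051 in MIR210HG-KO and 0.54 ± 0.051 in WT cells, with a highest adjusted p of 1.12e-10. SLC11A2 (DMT1), which moves ferrous iron across the endosomal membrane, was also higher in each genotype, at 0.22 ± 0.048, 0.18 ± 0.048 and 0.17 ± 0.047 in the same order.

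TFRC is a textbook target of hypoxia-inducible factors, whose core binding letters include ACGTG, the only form searched here. In RefSeq (GRCh38.p14) the 250 bases before the TFRC start hold that motif 1 time on the gene's strand, 88 bases before the start, and the stretch is shown with the motif in capitals because TFRC had the larger rise of the 2 members that were higher in hypoxia in all 3 genotypes. Searched on both strands, ACGTG was in 18.5% of 35116 such windows and in 20.5% of the 44 windows of the 32 members that the table holds, so a match is common and is a description only. No window was available for HMOX1 or FTH1, so these genes were not searched. The TFRC gene as counted runs to 196082189, beyond the RefSeq start. By that annotation the motif lies inside the gene and not before it.
TFRC promoter, chr3:196082091-196082340, minus strand: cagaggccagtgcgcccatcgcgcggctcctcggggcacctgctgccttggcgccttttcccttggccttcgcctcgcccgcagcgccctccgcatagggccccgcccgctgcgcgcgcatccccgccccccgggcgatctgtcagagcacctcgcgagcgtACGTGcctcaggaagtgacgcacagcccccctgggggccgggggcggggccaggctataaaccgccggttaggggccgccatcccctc

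STEAP3, the reductase that turns ferric into ferrous iron in endosomes, was lower in hypoxia in each genotype and had the largest oxygen response of any member in WT. It had 53.2, 46.7, 55.8 and 53.3 CPM in hypoxia MIR210-KO, against 90.2, 95.4, 94.5 and 94.8 CPM in normoxia. MIR210HG-KO had 29.5, 30.2, 31.1 and 26.8 CPM in hypoxia, against 60.7, 54.4, 46.3 and 53.4 CPM in normoxia. WT had 30.0, 26.8, 29.8 and 28.4 CPM in hypoxia, against 78.2, 79.4, 76.0 and 72.0 CPM in normoxia. The hypoxia libraries lay below all normoxia libraries of the same genotype. The changes were -0.84 ± 0.066 in MIR210-KO, -0.87 ± 0.069 in MIR210HG-KO and -1.41 ± 0.068 in WT, on the log2 scale. STEAP3 has a tested antisense neighbour, STEAP3-AS1, and reads of the pair cannot be told apart, because no source used here gives the strand setting of the counting. In total 14 members have such a neighbour: STEAP3, FTH1, HMOX2, FBXL5, PCBP1, PCBP2, NFS1, ISCA2, GLRX5, HSCB, CIAPIN1, NUBP1, NUBP2 and ABCB10. The same limit applies to all of them.

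The mitochondrial iron importer SLC25A28 (mitoferrin 2) fell in hypoxia in each genotype, with log2 fold changes of -0.73 ± 0.079 in MIR210-KO, -0.73 ± 0.080 in MIR210HG-KO and -0.49 ± 0.079 in WT. Its relative SLC25A37 (mitoferrin 1) was not called in any of the 11 comparisons. PCBP1, which hands iron to ferritin, fell, at -0.50 ± 0.067, -0.70 ± 0.067 and -0.22 ± 0.067 in the same order of genotypes. SLC40A1 was higher in hypoxia in both knockouts (0.54 ± 0.13, adjusted p = 0.000704 for MIR210-KO; 0.59 ± 0.13, adjusted p = 0.000173 for MIR210HG-KO), and its WT value was 0.027 ± 0.13 (adjusted p = 0.867).

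Ferritin transcripts gave smaller values. FTH1 had 214, 179.9, 178 and 181 CPM in hypoxia MIR210-KO, against 202, 197, 238 and 210.0 CPM in normoxia MIR210-KO, and was not called (-0.17 ± 0.079, adjusted p = 0.0623). In MIR210HG-KO it was lower in hypoxia (-0.22 ± 0.078, adjusted p = 0.0201), a call lost under DESeq2 (adjusted p = 0.0551) and without any of 4 libraries (normoxia MIR210HG-KO 1 or 2, hypoxia MIR210HG-KO 1 or 2). In WT it was higher in hypoxia (0.22 ± 0.078, adjusted p = 0.0155). FTL was higher in hypoxia WT, with 275, 215, 302 and 231 CPM in hypoxia WT, against 224, 214, 204 and 206 CPM in normoxia WT (0.27 ± 0.075, adjusted p = 0.00286). The WT libraries of the oxygen levels overlapped for FTL, and hypoxia WT 1 and 3 were the high ones. Without the 4 set-aside libraries, the WT calls of FTL (0.065, adjusted p = 0.284) and FTH1 (0.12, adjusted p = 0.117) were lost, as were those of PCBP2, HSCB and NFU1. Without them FTH1 was called lower in hypoxia MIR210-KO than in normoxia MIR210-KO (-0.24, adjusted p = 0.000307), and so it was with the swapped choice (-0.26, adjusted p = 0.000351) and without hypoxia MIR210-KO 1 alone (-0.25, adjusted p = 0.00972). FTL was then called higher in hypoxia MIR210HG-KO than in normoxia MIR210HG-KO, at 0.13 (adjusted p = 0.0137) and, swapped, 0.14 (adjusted p = 0.0141). Leaving out hypoxia WT 3 alone gave FTH1 0.15 in WT (adjusted p = 0.105), and leaving out normoxia WT 4 gave 0.20 (adjusted p = 0.0543). NCOA4, the receptor that sends ferritin to autophagy, was higher in hypoxia WT (0.30 ± 0.046, adjusted p = 1.01e-06) and not called in either knockout.

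Of the sensors, ACO1 (IRP1), which is aconitase when it holds an Fe-S cluster and binds iron-responsive elements when it does not, fell in each genotype. The changes were -0.17 ± 0.064 in MIR210-KO, -0.19 ± 0.065 in MIR210HG-KO and -0.38 ± 0.064 in WT. The calls of the knockouts did not withstand every left-out library: without normoxia MIR210-KO 2 or hypoxia MIR210-KO 2, and without normoxia MIR210HG-KO 1 or 4 or hypoxia MIR210HG-KO 3, the adjusted p ran from 0.0682 to 0.119, and it was 0.0983 in MIR210-KO with no filter on low counts and 0.0725 in MIR210HG-KO when only the groups compared were fitted. IREB2 (IRP2) was not called in any genotype by oxygen, although without the 4 set-aside libraries it was called in MIR210HG-KO (0.12, adjusted p = 0.0103), and with the swapped choice in MIR210HG-KO (0.12, adjusted p = 0.0119) and in WT (-0.14, adjusted p = 0.0155). FBXL5, which marks IRP2 for degradation when iron is plentiful, was higher in hypoxia WT (0.15 ± 0.052, adjusted p = 0.0123), and its values in the knockouts were 0.017 ± 0.051 (MIR210-KO) and 0.068 ± 0.051 (MIR210HG-KO), neither called.

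In the haem group, the inducible haem oxygenase HMOX1, which breaks haem down and frees its iron, was the member whose response to oxygen differed most between genotypes. HMOX1 had 29.4, 24.2, 25.6 and 25.5 CPM in hypoxia MIR210-KO, against 38.9, 42.1, 41.4 and 40.6 CPM in normoxia MIR210-KO. It had 13.4, 14.9, 12.5 and 15.0 CPM in hypoxia MIR210HG-KO, against 26.3, 25.6, 25.9 and 27.6 CPM in normoxia MIR210HG-KO. In WT it had 54.4, 44.4, 58.0 and 54.7 CPM in hypoxia, against 26.2, 25.5, 25.5 and 24.8 CPM in normoxia. All 4 hypoxia libraries were below the normoxia ones in both knockouts and above them in WT. The log2 fold changes were -0.64 ± 0.073, adjusted p = 6.19e-09 in MIR210-KO, -0.92 ± 0.077, adjusted p = 1.48e-11 in MIR210HG-KO and 1.05 ± 0.072, adjusted p = 7.71e-14 in WT.

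The constitutive haem oxygenase HMOX2 fell in hypoxia in each genotype, with log2 fold changes of -0.97 ± 0.081 in MIR210-KO, -0.94 ± 0.081 in MIR210HG-KO and -0.89 ± 0.079 in WT. Its level was 28.6 ± 3.31 CPM in hypoxia MIR210-KO, against 55.9 ± 4.02 CPM in normoxia MIR210-KO. Hypoxia MIR210HG-KO had 28.9 ± 1.01 CPM, against 55.4 ± 1.76 CPM in normoxia MIR210HG-KO. In WT it stood at 33.3 ± 5.08 CPM in hypoxia, against 61.5 ± 2.06 CPM in normoxia (SD, n = 4 each). FECH, the Fe-S enzyme that puts iron into haem, fell, at -0.52 ± 0.058, -0.49 ± 0.058 and -0.75 ± 0.058 in MIR210-KO, MIR210HG-KO and WT. ABCB10, a transporter of the inner mitochondrial membrane needed for haem synthesis, fell, at -0.34 ± 0.052, -0.25 ± 0.052 and -0.18 ± 0.051.

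Of the 12 mitochondrial assembly genes, 7 were lower and 0 higher in hypoxia in MIR210-KO (58.3% called, against 58.7% of all genes). In MIR210HG-KO 8 were lower and 0 higher (66.7%, against 54.1%). In WT 7 were lower and 3 higher (83.3%, against 60.3%), and of those higher the HSCB and NFU1 calls were lost without the 4 set-aside libraries. The cysteine desulfurase NFS1, which supplies the sulfur, fell, at -0.71 ± 0.080, -0.67 ± 0.078 and -0.88 ± 0.077 in that order, and its small partner LYRM4 (ISD11), at -0.79 ± 0.071, -0.76 ± 0.069 and -0.63 ± 0.069. NFS1 had 21.0, 17.8, 20.7 and 20.2 CPM in hypoxia MIR210-KO, against 29.4, 35.1, 35.0 and 30.8 CPM in normoxia. The hypoxia libraries lay below the normoxia libraries in all 3 genotypes for both genes. The transfer proteins GLRX5 (-0.73 ± 0.073, -0.79 ± 0.073 and -0.74 ± 0.073) and BOLA3 (-0.81 ± 0.096, -0.88 ± 0.098 and -0.61 ± 0.095) fell too. The electron donor FDX1 and the late-acting factor IBA57 were also lower in each genotype. Reads of NFS1 may be shared with ROMO1 on the opposite strand.

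The chaperone HSPA9 (mortalin), which helps release the finished cluster from the scaffold, was lower in hypoxia in MIR210-KO (-0.47 ± 0.048, adjusted p = 1.00e-09) and MIR210HG-KO (-0.40 ± 0.048, adjusted p = 1.97e-08) and higher in hypoxia in WT (0.12 ± 0.048, adjusted p = 0.0374). HSPA9 had 703, 617, 719 and 645 CPM in hypoxia WT, against 618, 619, 619 and 621 CPM in normoxia WT. These WT groups overlapped, with hypoxia WT 1 and 3 the highest. The hypoxia over normoxia values of HSPA9 were not refitted under the alternatives. Its co-chaperone HSCB was higher in hypoxia WT (0.37 ± 0.098, adjusted p = 0.00159) and not called in MIR210-KO (-0.21 ± 0.099) or MIR210HG-KO (-0.15 ± 0.099); without the 4 set-aside libraries the WT value was 0.21 (adjusted p = 0.068).

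Of the 6 cytosolic assembly genes, 5 were lower in hypoxia and 0 higher in each genotype, where 29.5% of all genes were lower in MIR210-KO, 28.3% in MIR210HG-KO and 30.7% in WT. Their medians were -0.59 in MIR210-KO, -0.60 in MIR210HG-KO and -0.56 in WT. CIAPIN1, which feeds electrons to the cytosolic scaffold, fell, at -0.94 ± 0.063 in MIR210-KO, -0.80 ± 0.063 in MIR210HG-KO and -0.75 ± 0.063 in WT. CIAO2B, of the complex that inserts clusters into target proteins, fell, at -0.82 ± 0.094, -0.89 ± 0.094 and -0.65 ± 0.093, and its partner CIAO1, at -0.38 ± 0.048, -0.43 ± 0.048 and -0.47 ± 0.048. The scaffold subunit NUBP2 fell, at -0.80 ± 0.084, -0.78 ± 0.084 and -0.70 ± 0.083, while the other scaffold subunit NUBP1 was not called in any genotype (-0.086 ± 0.093, -0.10 ± 0.091 and 0.065 ± 0.091). CIAPIN1, NUBP1 and NUBP2 each have a tested gene on the opposite strand. MMS19, the platform of the targeting complex, had the smallest of these falls, at -0.29 ± 0.051, -0.34 ± 0.051 and -0.15 ± 0.051.

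The knockouts were compared with WT at each oxygen level. Loss of the microRNA gene or of its host gene cannot be told apart here from other differences between the cell lines. In hypoxia MIR210-KO, 19 members were called, 4 higher and 15 lower (52.8%), where 55.9% of all genes were called, 28.2% higher and 27.7% lower; with the swapped choice 29 were called, 5 higher and 24 lower. In normoxia MIR210-KO, 13 were called, 6 higher and 7 lower (36.1%, against 44.2% of all genes, 22.6% higher and 21.6% lower). That count was 20 without the 4 set-aside libraries, 20 with the swapped choice and 21 when only the groups compared were fitted. In hypoxia MIR210HG-KO, 21 were called, 8 higher and 13 lower (58.3%, against 54.6% of all genes, 24.4% higher and 30.2% lower). The balance of directions depended on the libraries: without the 4 set-aside libraries 11 were higher and 10 lower, and with the swapped choice 6 were higher and 18 lower. In normoxia MIR210HG-KO, 19 were called, 10 higher and 9 lower (52.8%, against 35.2% of all genes, 15.6% higher and 19.6% lower). The knockout and WT libraries did not overlap for 16 members in hypoxia MIR210-KO (45.1% of all genes), 17 in normoxia MIR210-KO (47.7%), 12 in hypoxia MIR210HG-KO (45%) and 20 in normoxia MIR210HG-KO (35.2%). In the order given 2, 1, 2 and 0 members were called and changed by more than 1.5-fold, a share not counted over all genes. The median absolute log2 fold change of the members was 0.215, 0.137, 0.213 and 0.184 in that order. Over all genes it was 0.361, 0.292, 0.351 and 0.237. Both knockouts were set against the same WT libraries at each oxygen level, so their values are given side by side.

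**Figure D2:**
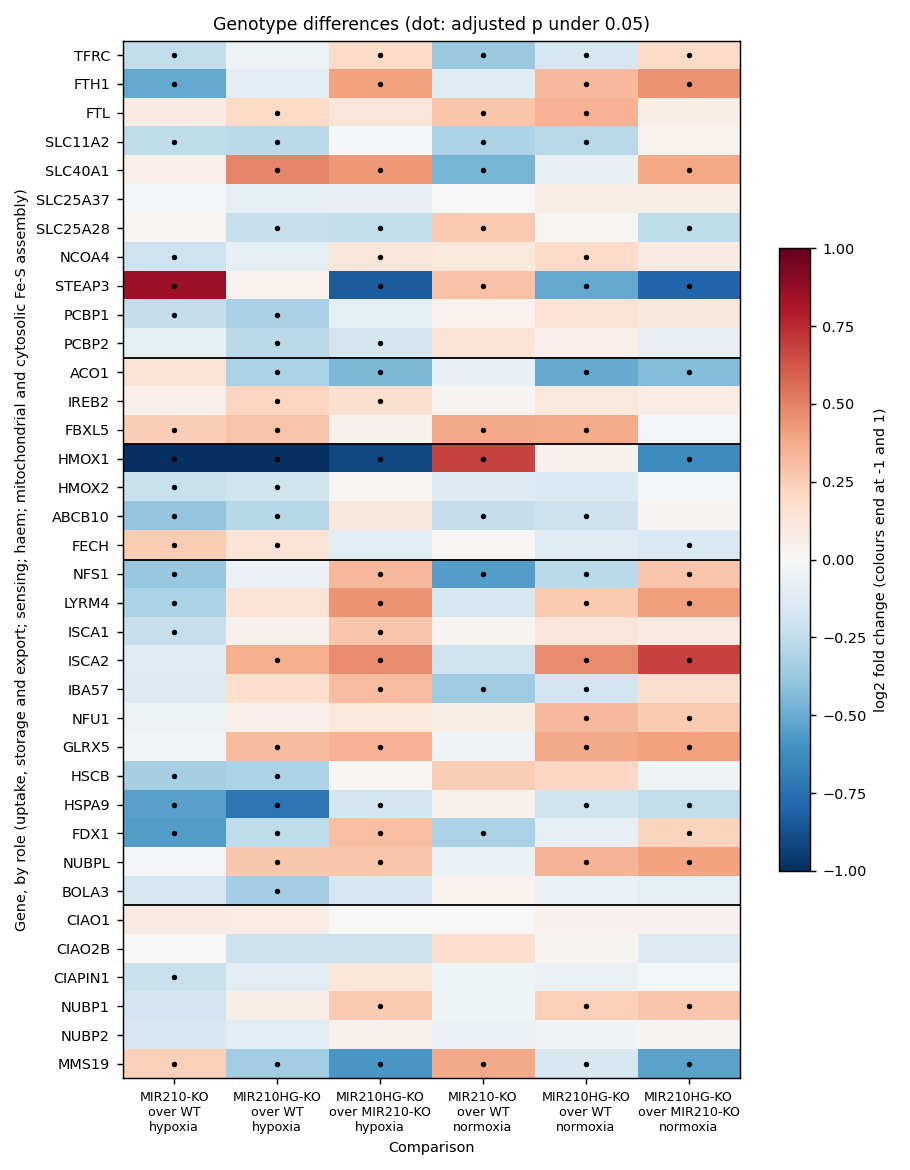
Genotype differences of the 36 genes as log2 fold changes (colour, from blue for lower to red for higher in the genotype named first), with genes in rows grouped by role and comparisons in columns. A dot marks an adjusted p under 0.05: 19, 21 and 21 genes in the hypoxia columns and 13, 19 and 18 in the normoxia columns, from left to right.

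HMOX1 gave the largest genotype difference of any member. In hypoxia it stood at 26.2 ± 2.21 CPM in MIR210-KO and 14.0 ± 1.20 CPM in MIR210HG-KO, against 52.9 ± 5.88 CPM in WT (SD, n = 4 each), and none of the libraries of either knockout overlapped WT. The changes were -1.01 ± 0.071, adjusted p = 1.28e-13 in MIR210-KO and -1.92 ± 0.075, adjusted p = 1.14e-19 in MIR210HG-KO. In normoxia it was higher in MIR210-KO than in WT (0.68 ± 0.073, adjusted p = 3.80e-09): the MIR210-KO libraries averaged 40.8 ± 1.37 CPM and the WT libraries 25.5 ± 0.554 CPM. Normoxia MIR210HG-KO, at 26.4 ± 0.887 CPM, was not called (0.046 ± 0.075, adjusted p = 0.676). Between the knockouts HMOX1 was lower in MIR210HG-KO than in MIR210-KO at both oxygen levels, at -0.91 ± 0.076 in hypoxia and -0.63 ± 0.073 in normoxia. Without the 4 set-aside libraries the hypoxia values were -0.98 in MIR210-KO and -1.83 in MIR210HG-KO.

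**Figure D3:**
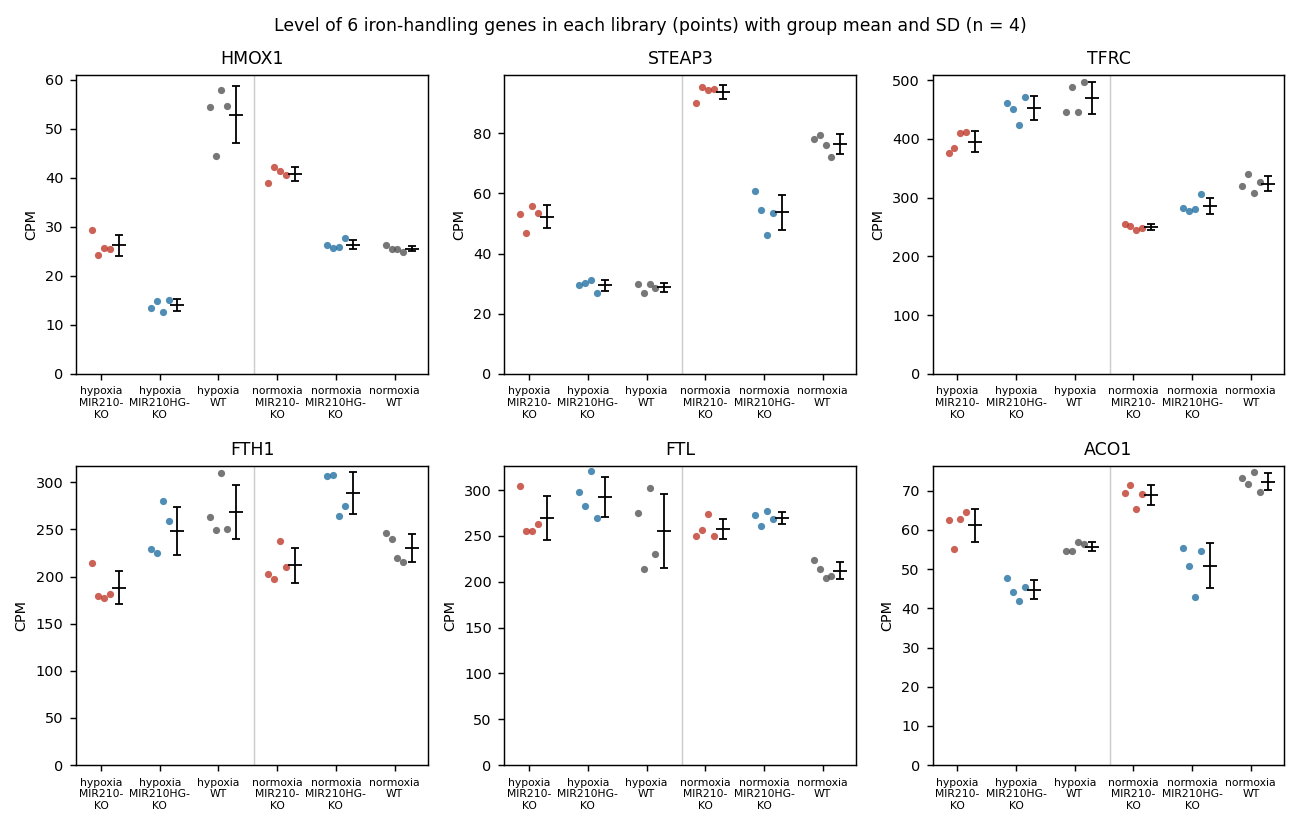
CPM of 6 iron-handling genes in every library (points; red MIR210-KO, blue MIR210HG-KO, grey WT), with the group mean and SD in black (n = 4), hypoxia left and normoxia right of the grey line, y axes from 0. HMOX1 is highest in hypoxia WT (52.9 CPM) and lowest in hypoxia MIR210HG-KO (14.0 CPM), and TFRC is higher in every hypoxia group than in the normoxia group of the same genotype.

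The uptake genes TFRC and SLC11A2 were both lower in MIR210-KO. Relative to WT, MIR210-KO had less TFRC at both oxygen levels (-0.25 ± 0.051, adjusted p = 0.000108 in hypoxia; -0.37 ± 0.051, adjusted p = 3.61e-07 in normoxia). In MIR210HG-KO it was lower in normoxia (-0.18 ± 0.051, adjusted p = 0.00672; 0.103 without the filter on low counts, at -0.14), and in hypoxia it was not called (-0.054 ± 0.051, adjusted p = 0.379). Without the 4 set-aside libraries that hypoxia value was -0.13 (adjusted p = 0.0205). SLC11A2 was lower in both knockouts at both oxygen levels: -0.25 ± 0.047 in MIR210-KO and -0.26 ± 0.047 in MIR210HG-KO in hypoxia, and -0.31 ± 0.048 and -0.28 ± 0.048 in normoxia. Its libraries had 50.7, 49.9, 50.9 and 48.7 CPM in normoxia MIR210-KO and 50.2, 52.0, 51.6 and 50.8 CPM in normoxia MIR210HG-KO, against 61.8, 61.7, 61.5 and 62.8 CPM in normoxia WT. Neither knockout overlapped WT there.

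STEAP3 separated the knockouts from each other. It was higher in MIR210-KO than in WT in hypoxia (0.86 ± 0.068, adjusted p = 1.82e-12) and in normoxia (0.29 ± 0.066, adjusted p = 0.000432). In MIR210HG-KO it was lower than WT in normoxia (-0.51 ± 0.067, adjusted p = 2.69e-07) and not called in hypoxia (0.032 ± 0.069, adjusted p = 0.717). Set against MIR210-KO, MIR210HG-KO had less at both levels of oxygen, at -0.83 ± 0.068 in hypoxia and -0.80 ± 0.067 in normoxia. No library of the knockouts overlapped in either comparison.

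In hypoxia, MIR210-KO had less FTH1 than WT (-0.51 ± 0.078, adjusted p = 1.40e-06), with 214, 179.9, 178 and 181 CPM in the MIR210-KO libraries, against 264, 249.8, 310.2 and 250.4 CPM in WT. The groups did not overlap. In normoxia it was higher in MIR210HG-KO than in WT (0.32 ± 0.078, adjusted p = 0.00138), with 307, 307, 265 and 275 CPM in MIR210HG-KO, against 246, 239, 220.0 and 215 CPM in WT. The values not called were -0.12 ± 0.079 for MIR210-KO in normoxia and -0.11 ± 0.078 for MIR210HG-KO in hypoxia; fitted with only the groups compared, the first was called at -0.13 (adjusted p = 0.0101), and with the swapped choice the second was called at -0.22 (adjusted p = 0.00614). FTL was higher in both knockouts in normoxia, at 0.28 ± 0.076 for MIR210-KO and 0.35 ± 0.076 for MIR210HG-KO. It was also higher in hypoxia MIR210HG-KO (0.20 ± 0.075, adjusted p = 0.0262), a call that was lost without hypoxia WT 2, hypoxia WT 4, hypoxia MIR210HG-KO 1 or hypoxia MIR210HG-KO 3 (adjusted p from 0.060 to 0.155) and with the swapped choice (0.013, adjusted p = 0.851). FTL in hypoxia MIR210-KO was 0.079 ± 0.075 and not called. Its direction turned with the hypoxia WT pair used: it was 0.21 (adjusted p = 0.000951) without the 4 set-aside libraries and -0.19 (adjusted p = 0.00394) with the swapped choice, and 0.17 (adjusted p = 0.0492) without hypoxia WT 3 alone. FTH1 has 25 and FTL 16 named pseudogenes in the tables, which held 0.832% and 0.317% as many counts, so reads between copies may be split.

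SLC40A1, the least abundant member, was higher in hypoxia MIR210HG-KO than in hypoxia WT (0.49 ± 0.12, adjusted p = 0.000988), with 8.37, 7.38, 5.56 and 8.26 CPM in MIR210HG-KO, against 5.01, 5.36, 6.17 and 4.50 CPM in WT. These libraries overlapped. In normoxia MIR210-KO it was lower than in WT (-0.47 ± 0.13, adjusted p = 0.00509). PCBP1 was lower in hypoxia in both knockouts, at -0.24 ± 0.067 in MIR210-KO and -0.33 ± 0.067 in MIR210HG-KO. PCBP2, a second chaperone of the same family, was lower in hypoxia MIR210HG-KO (-0.27 ± 0.058), and NCOA4 in hypoxia MIR210-KO (-0.21 ± 0.046).

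Among the sensors, FBXL5 was higher in both knockouts at both oxygen levels. It had 50.9, 54.2, 50.8 and 55.9 CPM in hypoxia MIR210-KO and 57.1, 54.1, 54.6 and 52.2 CPM in hypoxia MIR210HG-KO, against 43.9, 44.3, 43.8 and 46.7 CPM in hypoxia WT. In normoxia it had 53.5, 53.2, 51.7 and 50.9 CPM in MIR210-KO and 50.1, 50.0, 54.1 and 53.8 CPM in MIR210HG-KO, against 38.8, 41.3, 40.7 and 40.1 CPM in WT. Every knockout library was above every WT library of its oxygen level. The differences were 0.25 ± 0.051 and 0.29 ± 0.051 in hypoxia, and 0.38 ± 0.052 and 0.37 ± 0.052 in normoxia, MIR210-KO first. FBXL5 shares its place with FAM200B on the opposite strand. ACO1 was lower in MIR210HG-KO than in WT, at -0.32 ± 0.065, adjusted p = 0.000111 in hypoxia and -0.51 ± 0.065, adjusted p = 1.68e-07 in normoxia, and was not called in MIR210-KO at either (0.18, adjusted p = 0.0192, in hypoxia without hypoxia MIR210-KO 2). IREB2 was higher in hypoxia MIR210HG-KO (0.21 ± 0.058, adjusted p = 0.00248), which without the 4 set-aside libraries was 0.094 (adjusted p = 0.0772). With the swapped choice IREB2 was also called higher in hypoxia MIR210-KO (0.18, adjusted p = 0.00198).

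In mitochondrial assembly, 6 of the 12 members were called in hypoxia MIR210-KO (50%, against 55.9% of all genes) and 7 in hypoxia MIR210HG-KO (58.3%, against 54.6%). In normoxia 3 were called in MIR210-KO (25%, against 44.2%) and 8 in MIR210HG-KO (66.7%, against 35.2%). NFS1 was lower in MIR210-KO in hypoxia (-0.38 ± 0.079) and normoxia (-0.55 ± 0.077), and in normoxia MIR210HG-KO (-0.27 ± 0.076). In normoxia NFS1 had 29.4, 35.1, 35.0 and 30.8 CPM in MIR210-KO and 40.3, 38.3, 40.9 and 38.6 CPM in MIR210HG-KO, against 50.4, 46.6, 50.5 and 42.7 CPM in WT. No knockout library reached WT there. FDX1 was lower in MIR210-KO at both oxygen levels (-0.56 ± 0.080 in hypoxia and -0.32 ± 0.079 in normoxia). ISCA2, a late-acting carrier for the larger cluster type, was higher in MIR210HG-KO at both (0.35 ± 0.087 and 0.47 ± 0.087), as were GLRX5 (0.32 ± 0.073 and 0.38 ± 0.072) and NUBPL (0.27 ± 0.063 and 0.34 ± 0.065), which serves complex I. The ISCA2 call in hypoxia MIR210HG-KO was lost with the swapped choice (0.17, adjusted p = 0.0631). NFU1, another carrier, was higher in normoxia MIR210HG-KO (0.32 ± 0.079), and ISCA1, the partner of ISCA2, was lower in hypoxia MIR210-KO (-0.23 ± 0.068).

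HSPA9 was lower in hypoxia in both knockouts. It had 461, 471, 458 and 456 CPM in hypoxia MIR210-KO and 423, 405, 391 and 408 CPM in hypoxia MIR210HG-KO, against 703, 617, 719 and 645 CPM in hypoxia WT. The highest knockout library was below the lowest WT library. The changes were -0.54 ± 0.048, adjusted p = 3.30e-11 in MIR210-KO and -0.72 ± 0.048, adjusted p = 6.19e-14 in MIR210HG-KO. HSCB was lower in hypoxia as well, at -0.33 ± 0.096 and -0.31 ± 0.096, but neither call held without the 4 set-aside libraries (adjusted p = 0.057 and 0.185), and the MIR210HG-KO call was also lost without hypoxia WT 3 alone (-0.19, adjusted p = 0.0949). The BOLA3 call in hypoxia MIR210HG-KO (-0.34 ± 0.097) was also lost without them (-0.12, adjusted p = 0.197). IBA57 was lower in normoxia MIR210-KO (-0.35 ± 0.076, adjusted p = 0.000267) and, at -0.19 ± 0.076, adjusted p = 0.0455, in normoxia MIR210HG-KO, a call lost under DESeq2 (adjusted p = 0.0899), under RLE scaling, with the swapped choice, without the low-count filter and when any of 7 libraries was left out.

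Of the 6 cytosolic assembly genes, 2 were called in hypoxia MIR210-KO (33.3%, against 55.9% of all genes) and 1 in hypoxia MIR210HG-KO (16.7%, against 54.6%). In normoxia 1 was called in MIR210-KO (16.7%, against 44.2%) and 2 in MIR210HG-KO (33.3%, against 35.2%). MMS19 was called in all 4, higher in MIR210-KO (0.24 ± 0.051 in hypoxia and 0.38 ± 0.051 in normoxia) and lower in MIR210HG-KO (-0.34 ± 0.051 and -0.16 ± 0.051). In hypoxia MMS19 had 119, 117, 114 and 123 CPM in MIR210-KO and 82.0, 71.9, 81.1 and 81.1 CPM in MIR210HG-KO, against 99.0, 95.1, 106 and 101 CPM in WT. WT lay between the knockouts with no overlap. In haem, ABCB10 was lower in both knockouts at both oxygen levels, from -0.40 to -0.21, and HMOX2 in hypoxia, at -0.22 ± 0.081 in MIR210-KO and -0.20 ± 0.081 in MIR210HG-KO. FECH was higher in hypoxia MIR210-KO (0.25 ± 0.058, adjusted p = 0.000423). In MIR210HG-KO its call in hypoxia (0.14 ± 0.058, adjusted p = 0.046) was lost with the replicate number as a block (0.14, adjusted p = 0.0568), with the swapped choice, without the low-count filter and without any of 5 libraries.

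Set against each other, MIR210HG-KO and MIR210-KO differed in 21 members in hypoxia, 14 higher and 7 lower in MIR210HG-KO (58.3%, against 55.1% of all genes, 26% higher and 29% lower). In normoxia they differed in 18, 11 higher and 7 lower (50%, against 49.2% of all genes, 23.4% higher and 25.8% lower). Their libraries did not overlap for 19 members in hypoxia (50.6% of all genes) and 20 in normoxia (44.4%). At both oxygen levels 10 members were higher (27.8%, against 18.5% of all genes) and 6 lower (16.7%, against 21.6%) in MIR210HG-KO. FTL, not called in hypoxia with all libraries, was called higher there without the 4 set-aside libraries (0.18, adjusted p = 0.000513) and with the swapped choice (0.20, adjusted p = 0.000315). The 10 were FDX1, FTH1, GLRX5, ISCA2, LYRM4, NFS1, NUBP1, NUBPL, SLC40A1 and TFRC, of which 6 act in mitochondrial assembly. The 6 lower were ACO1, HMOX1, HSPA9, MMS19, SLC25A28 and STEAP3. Left-out libraries ended the SLC25A28 call in hypoxia (without hypoxia MIR210HG-KO 1, adjusted p = 0.0616) and in normoxia (without normoxia MIR210-KO 3, adjusted p = 0.0516), and the SLC40A1 call in normoxia (without normoxia MIR210-KO 4 or normoxia MIR210HG-KO 3 or 4, adjusted p from 0.0514 to 0.0645). Of the 12 mitochondrial assembly genes, 8 were higher and 1 lower in MIR210HG-KO in hypoxia, with a median log2 fold change of 0.29, and 7 higher and 1 lower in normoxia, with a median of 0.24. Over all genes the medians were -0.011 and 0.0013. ISCA2 had 30.3, 26.8, 34.4 and 31.5 CPM in normoxia MIR210HG-KO, against 18.4, 18.7, 21.9 and 17.7 CPM in normoxia MIR210-KO (0.68 ± 0.089, adjusted p = 9.42e-08). LYRM4 had 20.4, 22.7, 19.1 and 21.1 CPM in hypoxia MIR210HG-KO, against 16.4, 14.2, 15.8 and 14.5 CPM in hypoxia MIR210-KO (0.45 ± 0.071, adjusted p = 2.18e-06). The libraries of both pairs were apart.

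Interaction contrasts tested whether the oxygen response of a knockout differs from that of WT. For MIR210-KO 11 of 36 members were called, 3 with a higher and 8 with a lower response than WT (30.6%, against 26.5% of all genes, 12.5% higher and 14% lower). For MIR210HG-KO 11 were called, 4 higher and 7 lower (30.6%, against 22.5% of all genes, 10.2% higher and 12.2% lower). The first count ran from 6 to 15 when each library was left out. It was 6 without normoxia WT 4 or hypoxia WT 1 and 7 without normoxia WT 3, normoxia MIR210-KO 1, normoxia MIR210-KO 3 or hypoxia MIR210-KO 4. Both counts rested on the hypoxia WT libraries used: they were 10 and 11 without the 4 set-aside libraries, and 25 and 25 with the swapped choice, where 7955 and 7038 of all genes were called, against 5287 and 4486 with all libraries. The contrasts share the WT libraries of both oxygen levels.

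HMOX1 had the largest interaction, at -1.69 ± 0.10, adjusted p = 1.56e-13 for MIR210-KO and -1.97 ± 0.11, adjusted p = 1.36e-14 for MIR210HG-KO. Leaving out any 1 library gave -1.77 to -1.65 and -2.05 to -1.92. For HSPA9 the interactions were -0.58 ± 0.068, adjusted p = 1.05e-07 and -0.52 ± 0.068, adjusted p = 1.26e-06 in that order. STEAP3, which fell less in hypoxia in the knockouts than in WT, gave 0.57 ± 0.095, adjusted p = 2.90e-05 and 0.54 ± 0.096, adjusted p = 0.000105. FTH1 gave -0.39 ± 0.11 and -0.44 ± 0.11, NCOA4 -0.31 ± 0.065 and -0.28 ± 0.065, and HSCB -0.58 ± 0.14 and -0.52 ± 0.14, with the second HSCB call lost without the 4 set-aside libraries (adjusted p = 0.0676). PCBP1 gave -0.27 ± 0.094 and -0.47 ± 0.094, and PCBP2 -0.22 ± 0.082 and -0.33 ± 0.082. SLC40A1 was called for MIR210-KO (0.52 ± 0.18, adjusted p = 0.0338) and MIR210HG-KO (0.56 ± 0.18, adjusted p = 0.0206), with the calls lost without any of 9 and 4 libraries and the first also lost with the swapped choice. FECH was called at 0.23 ± 0.082 and 0.27 ± 0.082, with the calls lost without any of 12 and 2 libraries. Both calls of FECH were also lost without the low-count filter (adjusted p = 0.0710 and 0.0704). The first was lost under RLE scaling (adjusted p = 0.0508) and with the swapped choice as well. TFRC, at 0.12 ± 0.072 and 0.12 ± 0.072, was not called (adjusted p = 0.216 and 0.234), nor were ACO1, FTL, IREB2 and SLC11A2 for either knockout in the fit over 24 libraries. Without hypoxia MIR210-KO 2 the ACO1 value for MIR210-KO was 0.25 (adjusted p = 0.0356), and without hypoxia WT 2 that of FTL was -0.28 (adjusted p = 0.0306). With the swapped choice TFRC was called at 0.19 (adjusted p = 0.0211) and 0.18 (adjusted p = 0.0314), FTL at -0.47 (adjusted p = 6.32e-07) and -0.32 (adjusted p = 0.000427), and IREB2 for MIR210HG-KO at 0.26 (adjusted p = 0.00135).

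The spread of each gene over the 24 libraries was split into shares for oxygen level, genotype, their interaction and the spread within groups, on log2(CPM + 1). Oxygen level held the largest share for 17 members (34.9% of all genes), genotype for 11 (41.4%), the interaction for 3 (2.13%) and the spread within groups for 5 (21.6%). The 3 with the interaction on top were HMOX1, NCOA4 and HSCB. CIAPIN1, CIAO1 and HMOX2 had the largest shares for oxygen level, and FBXL5 and NUBPL the largest for genotype. These shares describe the libraries and were not tested.

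**Figure D4:**
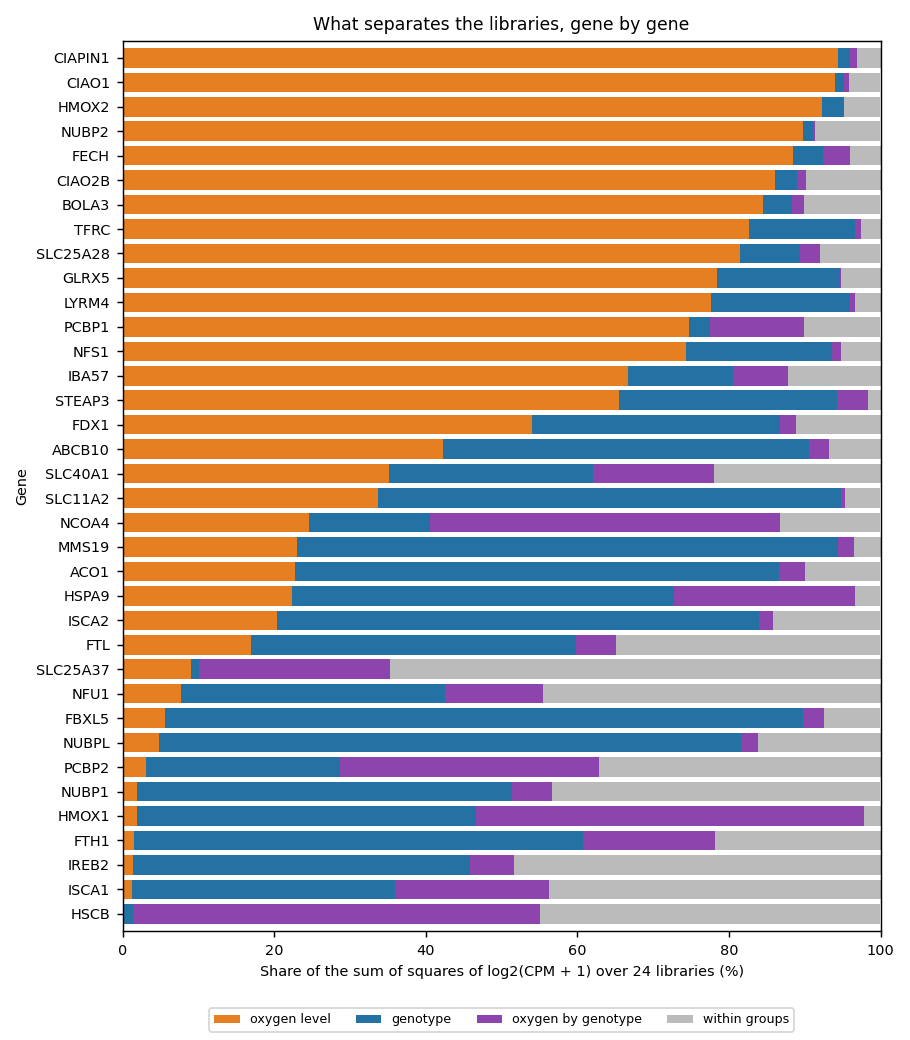
Share of the sum of squares of log2(CPM + 1) over 24 libraries (x axis, %) held by oxygen level, genotype, their interaction and the spread within groups, 1 bar a gene, ordered by the oxygen share. Oxygen level leads for 17 genes, and HMOX1, NCOA4 and HSCB have the interaction as their largest share.

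ISCU, the assembly scaffold and known miR-210 target, was not called in any genotype comparison with all libraries. In hypoxia it had 53.7, 51.6, 51.8 and 49.3 CPM in MIR210-KO and 46.7, 55.6, 48.8 and 45.8 CPM in MIR210HG-KO, against 52.5, 47.2, 54.2 and 46.3 CPM in WT, and the groups overlapped. The values were 0.044 ± 0.060 (adjusted p = 0.546) and -0.024 ± 0.060 (adjusted p = 0.751). Hypoxia WT split by the library pairs described above, with 52.5 and 54.2 CPM against 47.2 and 46.3 CPM. Every hypoxia MIR210-KO library lay above the lower pair, and all but the highest, at 53.7 CPM, lay below the upper pair. ISCU was not refitted under the alternatives, so the dependence of its values on the WT pair was not tested. With oxygen it was lower in hypoxia in MIR210-KO (-0.14 ± 0.060, adjusted p = 0.0469) and MIR210HG-KO (-0.27 ± 0.060, adjusted p = 0.000267) and not called in WT (-0.14 ± 0.060, adjusted p = 0.0511). Among the 3 members with an ACGCACA site, TFRC and CIAPIN1 were lower in hypoxia MIR210-KO than in WT (CIAPIN1 -0.23 ± 0.063, adjusted p = 0.00277), and SLC25A37 was at -0.012 ± 0.053 (adjusted p = 0.867).

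Genes outside the 36 were followed in 4 further lists, which were not refitted under the alternatives. Of 15 other tested Fe-S assembly genes, 11 were lower in hypoxia in MIR210-KO, 12 in MIR210HG-KO and 9 in WT, and 0 were higher in any (73.3%, 80% and 60% called, against 58.7%, 54.1% and 60.3% of all genes), with medians of -0.34, -0.49 and -0.40. NDOR1, the electron donor of cytosolic assembly, fell, at -1.12 ± 0.093, -0.97 ± 0.092 and -0.99 ± 0.092. Of 32 proteins that carry Fe-S clusters, 21 were lower in hypoxia in MIR210-KO, 21 in MIR210HG-KO and 17 in WT, and 5, 3 and 8 were higher (81.2%, 75% and 78.1% called, against the same shares of all genes). DPH2, which makes the diphthamide of elongation factor 2, fell, at -1.68 ± 0.077, -1.23 ± 0.076 and -1.27 ± 0.076, and CISD3, a small mitochondrial Fe-S protein, at -1.36 ± 0.11, -1.37 ± 0.11 and -1.29 ± 0.10. Of the same 32 genes, 15 were lower and 4 higher than WT in hypoxia MIR210-KO, where 27.7% of all genes were lower and 28.2% higher. In MIR210HG-KO 19 were lower and 3 higher, where 30.2% of all genes were lower and 24.4% higher, and the medians were -0.21 and -0.24. ABCE1, the ribosome recycling factor, had the largest change of them in hypoxia MIR210-KO (-1.12 ± 0.061, adjusted p = 2.59e-16).

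Of 17 genes of haem synthesis and transport, 9 were lower and 2 higher in hypoxia in MIR210-KO cells (64.7% called, against 58.7% of all genes). In MIR210HG-KO cells 10 were lower and 2 higher (70.6%, against 54.1%), and in WT 10 were lower and 3 higher (76.5%, against 60.3%). FLVCR2, a choline and haem transporter, was higher in hypoxia MIR210-KO (1.11 ± 0.25) and hypoxia MIR210HG-KO (1.49 ± 0.24) than in hypoxia WT. Of 13 tested genes of other iron transport and regulation, 8 were higher and 3 lower in hypoxia MIR210-KO than in WT (84.6% called, against 55.9% of all genes), and 4 higher and 5 lower in hypoxia MIR210HG-KO (69.2%, against 54.6%). CYBRD1, a ferric reductase of the gut, was higher in MIR210-KO in hypoxia (1.07 ± 0.083) and normoxia (1.07 ± 0.093). The transferrin gene TF, at 1.75 ± 0.362 CPM in hypoxia MIR210-KO and 0.290 ± 0.133 CPM in hypoxia MIR210HG-KO, against 0.710 ± 0.115 CPM in hypoxia WT (SD, n = 4 each), was higher in the first (1.30 ± 0.27) and lower in the second (-1.28 ± 0.33).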

How the data were processed

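Libraries were made with the NEBNext Ultra kit from TRIzol RNA, per the labels' protocols. The deposited values are raw read counts per gene, in 1 table per oxygen level, and the submitters' processing notes name STAR 2.6.1d, featureCounts 1.5.0-p3, DESeq2 1.20.0, edgeR 3.24.3 and GRCh38. Neither the strand setting of the counting nor its gene annotation is given in the sources used here. The 36 members and all gene lists were chosen with earlier results of these data known.

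Both tables were joined by gene and fitted in 1 model over 24 libraries with edgeR 4.0.16 in R 4.3.3 (TMM scaling, quasi-likelihood test, 2-sided). Genes had to pass edgeR's expression filter (minimum count 10, total 15), which kept 19952 of 58735. P-values were adjusted by Benjamini-Hochberg over all genes tested, with a threshold of 0.05. The standard error is the absolute log2 fold change divided by the square root of F. CPM use TMM-scaled library sizes. The fit was tested on simulated counts. No pair of libraries of a group agreed within sampling noise (lowest chi-square per degree of freedom 2.27), so each counts as 1. The replicate numbers were not used to pair libraries, since in no comparison did all 4 same-numbered pairs deviate together (correlations from -0.29 to 0.26, with 3 of 4 above 0.1 in MIR210-KO over WT in hypoxia).

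Genes named were 8 always described, the 8 highest and 8 lowest called members of each comparison (5 and 5 for the interactions), and up to 2 called genes with the largest change from each other list; a gene that this rule allows is not reported here. Alternatives were RLE scaling, no filter, the replicate number as a block, only the groups compared, DESeq2 1.42.0, leaving out 4 set-aside libraries, a swapped choice of these (added after seeing the data) and leaving out each library. They covered the counts of called members and of all called genes, and 188 log2 fold changes of members. Sequences were read from GRCh38 with GENCODE 29 and from RefSeq tables of GRCh38.p14.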

Additional observations from a re-analysis of the deposited data

Results flagged for a closer look

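In 16 of 216 groups of 4 libraries, 1 library lay apart from the other 3 by more than Dixon's 95% critical value allows. Chance gives about 1 in 20 such groups. All values are CPM. Hypoxia MIR210-KO 1 was the one apart for 4 genes: FTH1 (214, against 178 to 181 in the other 3), FTL (305, against 255 to 263), NCOA4 (117, against 127 to 129) and NUBP1 (12.5, against 9.50 to 10.0). Hypoxia MIR210-KO 3 had 118 for CIAO1, against 115 in each of the other 3. Hypoxia MIR210HG-KO 1 had 23.0 for NFS1, against 25.2 to 25.7, and hypoxia MIR210HG-KO 2 had 71.9 for MMS19, against 81.1 to 82.0. Hypoxia WT 1 had 104 for ABCB10, against 91.7 to 93.6, and hypoxia WT 4 had 46.7 for FBXL5, against 43.8 to 44.3. Normoxia MIR210-KO 1 had 49.9 for HMOX2, against 57.7 to 58.1, and 90.2 for STEAP3, against 94.5 to 95.4. Normoxia MIR210-KO 4 had 122 for NCOA4, against 127 to 128. Normoxia MIR210HG-KO 3 had 576 for HSPA9, against 521 to 529, and normoxia MIR210HG-KO 4 had 307 for TFRC, against 277 to 282. Normoxia WT 1 had 23.2 for ISCA2, against 21.7 to 21.9, and normoxia WT 2 had 37.3 for ISCA1, against 34.3 to 34.8.

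The oxygen response differed between a knockout and WT in edgeR's interaction test for 11 genes each, on the log2 scale. For MIR210-KO minus WT the differences were -1.69 for HMOX1, -0.58 for HSPA9, -0.58 for HSCB, -0.39 for FTH1, -0.31 for NCOA4, -0.27 for PCBP1, -0.26 for ISCA1 and -0.22 for PCBP2. Responses above WT were 0.57 for STEAP3, 0.52 for SLC40A1 and 0.23 for FECH. For MIR210HG-KO minus WT they were -1.97 for HMOX1, -0.52 for HSCB, -0.52 for HSPA9, -0.47 for PCBP1, -0.44 for FTH1, -0.33 for PCBP2 and -0.28 for NCOA4. Responses above WT were 0.56 for SLC40A1, 0.54 for STEAP3, 0.37 for IBA57 and 0.27 for FECH. Both sets rest on the same 8 WT libraries.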

How the results depend on the processing

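Of 188 named log2 fold changes, 185 kept their direction and side of the threshold under RLE scaling, 181 with no low-count filter, 183 with only the groups compared, 185 under DESeq2 and 171 without the 4 set-aside libraries (11 calls lost, 6 gained). Leaving out each library kept 1643 of 1720 values. With hypoxia WT 2 and 4 set aside in place of WT 1 and 3, an alternative added after seeing the data, 169 were kept, 6 calls were lost, 12 gained, and FTL in hypoxia MIR210-KO over WT, not called with all libraries, turned to -0.19 (adjusted p = 0.00394). No other value called in either fit changed sign. With the replicate number as a block, the call of FECH in hypoxia MIR210HG-KO over WT was lost (0.14, adjusted p = 0.0568) and no other named call changed. The labels do not say whether same-numbered libraries belong together. The 13 members called in normoxia MIR210-KO over WT became 20 without the 4 libraries, 20 with the swapped WT libraries and 21 with only the groups compared; the cause was not tested. The 11 members with an interaction for MIR210-KO ranged from 6 to 15 over left-out libraries. With the swapped WT libraries the 19 members called in hypoxia MIR210-KO over WT became 29, and the interactions became 25 for MIR210-KO and 25 for MIR210HG-KO (7955 and 7038 over all genes). The remaining totals stayed within 1.5 times, but some counts by direction moved further. Without the 4 libraries, members higher in hypoxia were 6 in MIR210HG-KO (3 with all libraries) and 6 in WT (11 with all libraries). Members higher in normoxia MIR210-KO than in WT were then 10 (6 with all libraries). The 8 higher and 13 lower in hypoxia MIR210HG-KO over WT became 11 and 10, a move within 1.5 times that changed the balance. Leaving out 1 library moved the interactions to 1 to 4 higher and 5 to 13 lower for MIR210-KO, and for MIR210HG-KO to 2 higher without normoxia WT 3 and 11 lower without hypoxia WT 2. Without the 4 libraries the interactions of MIR210HG-KO for IBA57 (0.18, adjusted p = 0.0776) and HSCB (-0.34, adjusted p = 0.0676) were lost. With 4 libraries a group and differences mostly under 1.5-fold, a value not called is not shown to be unchanged.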
